A study of Homo sapiens with 9 samples.

Results

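The TRAF2 to PTGDS locus is a stretch of 200 kb on chromosome 9, at 9q34.3 (hg19, chr9:139750000-139950000), that holds TRAF2, FBXW5, PTGDS and ABCA2. It was chosen from the same γH2AX data, because called regions covered almost none of it in wild-type cells and most of its length in FANCL knockout cells treated with PMA. All called regions overlapping it were taken from the 8 γH2AX region lists, which gave 165 of 234983 regions, against 8214 on the whole of chromosome 9. The contrast of knockout PMA with wild-type PMA is therefore given as a description, with no test.

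The study asked how loss of FANCL bears on DNA repair and on differentiation of blood cells. γH2AX was mapped by chromatin immunoprecipitation and sequencing in K562, an established human myelogenous leukaemia line. The 4 groups, with 2 libraries each, were FANCL knockout cells given 5 nM PMA for 72 h (KO PMA), FANCL knockout cells given a mock treatment for 72 h (KO mock), wild-type cells given 5 nM PMA for 72 h (WT PMA) and mock-treated wild-type cells (WT mock). A WT mock input library was the only background for all 8 lists, and whether the knockout line was 1 clone is not given in the sources used here. The lists hold no measure of FANCL, so the genotype rests on the labels.

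γH2AX is the histone variant H2AX phosphorylated by damage-signalling kinases on the chromatin flanking a DNA break or a stalled fork, and it spreads along the chromosome away from the lesion. FANCL is the ubiquitin ligase of the Fanconi anaemia pathway, which marks FANCD2 and FANCI at blocked replication forks so that crosslinks can be repaired. PMA is a phorbol ester that activates protein kinase C and drives K562 cells towards megakaryocyte-like differentiation.

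TRAF2 is an adaptor and ubiquitin ligase that carries signals from TNF receptors to NF-κB and stress kinases. FBXW5 is an F-box and WD-repeat protein that selects substrates for cullin ubiquitin ligases. PTGDS makes prostaglandin D2 and also belongs to the lipocalins, which carry small lipophilic molecules. ABCA2 is a lipid transporter of endosomes and lysosomes. In the RefSeq order of genes, 7 genes lie between TRAF2 and ABCA2: FBXW5, then C8G, LCN12, PTGDS, LCNL1, PAXX and CLIC3. C8G is a chain of complement component C8 with a lipocalin fold, LCN12 and LCNL1 are further lipocalin family members, PAXX is a factor of non-homologous end joining of DNA breaks, and CLIC3 is an intracellular chloride channel protein. Of the genes, TRAF2 alone was placed within the hg19 locus, at chr9:139780965-139821059 (40.1 kb). The positions of the others in hg19 were not used here, so coverage right of TRAF2 is given for the stretch and not gene by gene.

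The promoters of TRAF2 and PTGDS are shown because TRAF2 is the gene placed in the locus and PTGDS gives the locus its other name, and because they differ in CpG content. Each sequence is the RefSeq window from 250 bases before to 50 bases after the gene start, in the GRCh38.p14 assembly, at chr9:136886266-136886565 on the plus strand for TRAF2 and at chr9:136977254-136977553 on the plus strand for PTGDS. These positions belong to another build than the region positions and cannot be set beside them. Capitals mark matches, on either strand, to GGGCGG, the core of a GC box, or to the CCAAT box. The TATA box letters TATAAA were searched on both strands as well.
TRAF2: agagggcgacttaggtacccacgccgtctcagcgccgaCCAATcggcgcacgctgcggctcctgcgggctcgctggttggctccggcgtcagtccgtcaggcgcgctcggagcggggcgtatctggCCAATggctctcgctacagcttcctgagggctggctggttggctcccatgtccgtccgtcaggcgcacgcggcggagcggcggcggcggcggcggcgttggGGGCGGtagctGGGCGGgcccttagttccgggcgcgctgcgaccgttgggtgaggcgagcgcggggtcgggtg
PTGDS: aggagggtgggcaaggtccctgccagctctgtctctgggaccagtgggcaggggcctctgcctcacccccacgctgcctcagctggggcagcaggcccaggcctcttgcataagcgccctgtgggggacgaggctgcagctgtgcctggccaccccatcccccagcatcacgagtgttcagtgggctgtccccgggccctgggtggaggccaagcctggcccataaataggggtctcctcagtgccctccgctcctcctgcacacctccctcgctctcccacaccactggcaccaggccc

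The TRAF2 window had a GC content of 73.3% with 44 CpG dinucleotides, and held 2 GGGCGG and 2 CCAAT matches and 0 TATAAA matches. The PTGDS window had a GC content of 68.7% with 7 CpG dinucleotides and no match to any of the 3 motifs. Across all 35116 promoter windows of the table, the median GC content was 58.7% with 14 CpG dinucleotides, and GGGCGG occurred in 45.0%, CCAAT in 34.6% and TATAAA in 11.5% of windows. Of the 9 genes from TRAF2 to ABCA2, 8 had an entry. The CpG count was 39 at FBXW5, 38 at PAXX, 20 at CLIC3, 7 at LCNL1 and 1 at LCN12, and the ABCA2 windows, 2 entries, had 16 and 66. The lipocalin genes PTGDS, LCNL1 and LCN12 thus had the fewest CpG dinucleotides of the 8 genes.

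Depth ran from 15.6 to 27.2 M (mega) tags per library, a tag being a mapped read, with at most 1 kept per base pair. The lists held 11959 to 42896 regions per library, covering 8.42 to 42.6 Mb of the genome. The share of tags that the caller placed inside regions differed between groups. It was 7.96% and 6.69% in KO PMA, 3.42% and 3.67% in KO mock, 4.69% and 4.24% in WT PMA, and 1.55% and 1.39% in WT mock. The part that this share plays in the covered lengths below was not tested.

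Called γH2AX regions covered 120 and 114 kb of the locus in the KO PMA libraries, with 20.2 and 25.5 kb in KO mock. Covered lengths were 1.13 and 0.50 kb for WT PMA, against 1 and 1.64 kb for WT mock. The KO PMA libraries stood far above the rest, both KO mock libraries lay above all 4 wild-type libraries, and the WT PMA and WT mock ranges overlapped. As group means the locus was covered over 117 ± 3.81 kb in KO PMA, 22.9 ± 3.77 kb in KO mock, 0.815 ± 0.445 kb in WT PMA and 1.32 ± 0.455 kb in WT mock (SD, n = 2 each). Of the length of the locus, that is 58.5% in KO PMA, 11.4% in KO mock, 0.407% in WT PMA and 0.661% in WT mock. More cells carrying γH2AX and more γH2AX per cell cannot be told apart in such bulk samples.

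**Figure D1:**
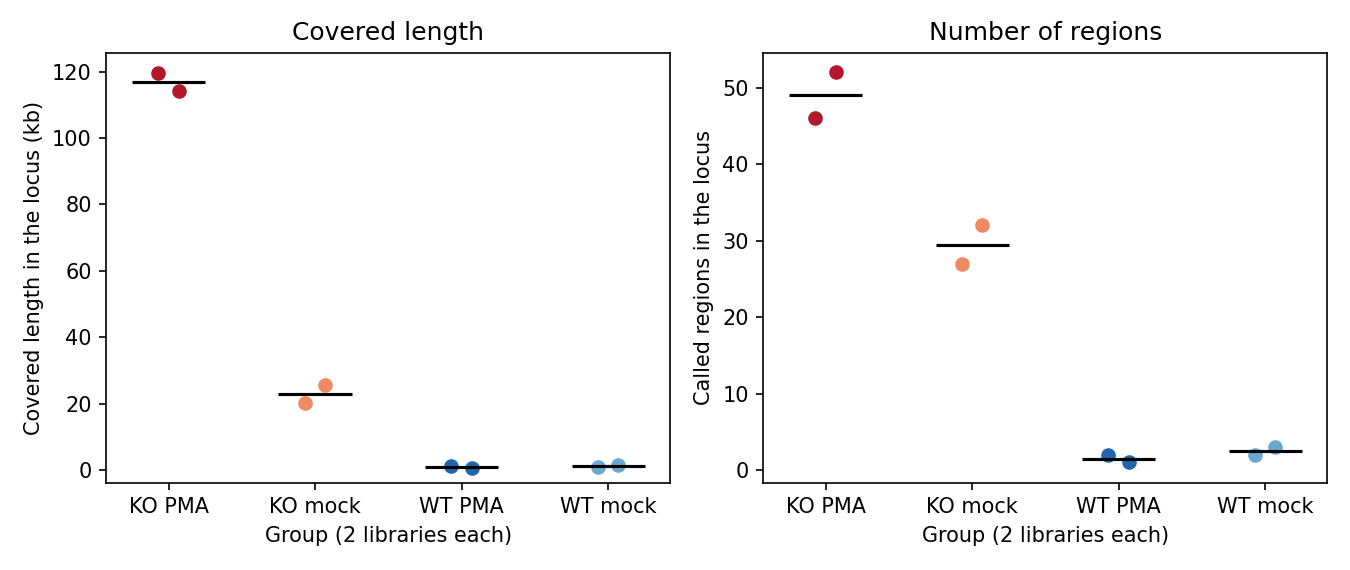
Covered length in kb (left) and number of called regions (right) in the 200 kb locus, with 1 point per library and a bar at the mean of the 2 libraries of each group. KO PMA libraries sit at 120 and 114 kb, KO mock at 20.2 and 25.5 kb, and all 4 wild-type libraries at 1.64 kb or less.

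The order of the groups at the locus was not the order over the genome. Genome-wide covered length averaged 38.6 ± 5.69 Mb for KO PMA libraries, 17.6 ± 0.084 Mb for KO mock libraries, 28.2 ± 4.64 Mb for WT PMA libraries and 9.14 ± 1.01 Mb for WT mock libraries (SD, n = 2 each). WT PMA libraries thus had more covered length than KO mock libraries over the genome and less at the locus. Relative to its library's mean density, the locus was covered 42.6 and 50.1 times as densely in KO PMA and 17.5 and 22.0 times in KO mock. The ratio was 0.545 and 0.305 in WT PMA and 1.54 and 2.96 in WT mock. The locus was thus below the genome mean in both WT PMA libraries. Choice of the locus partly fixed the group order and the KO PMA and wild-type ratios, so nothing is read from them.

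FANCL knockout without PMA went with a longer covered length at the locus. Covered length was higher in KO mock than in WT mock by 3.37 ± 0.26 on the log2(covered bp + 1000) scale (SE), with an adjusted p of 0.00126 from limma with Benjamini-Hochberg adjustment over 5917 windows of 200 kb. The rule used the low wild-type level, which is the reference of this difference, though not the KO mock level. The difference, its p-value and the rank below are thus partly fixed by the choice of the locus and given as a description. Of all windows, 21.8% were higher and 3.95% lower in this comparison at an adjusted p under 0.05, the median difference of all windows was 0.29, and the locus ranked 95 by its difference. When the regions were limited to those 6-fold or more above input, the difference was 1.58 and the adjusted p 0.110.

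PMA in knockout cells went with a further increase. Covered length was higher in KO PMA than in KO mock by 2.31 ± 0.26 on the same log2 scale (SE; adjusted p = 0.00458, limma), where 14.3% of all windows were higher, 6.46% were lower and the median difference was 0.23. The locus ranked 208 of the 5917 windows. The rule used the KO PMA level, so the difference, its p-value and the rank are partly fixed by the choice of the locus. They are given as a description. Limited to regions 6-fold or more above input, the difference was -0.22 ± 0.38 (SE, adjusted p = 0.880, limma). Its sign was the other way, but it did not pass the test.

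PMA in wild-type cells did not go with a change that passed the test. The difference of WT PMA from WT mock was -0.36 ± 0.26 on the log2 scale (SE; adjusted p = 0.316, limma), while the median of all windows was 0.90 and 40.6% of windows were higher and 2.1% lower. The locus therefore ranked 5545 of 5917. When each library was centred on its own median the difference was -1.31 (adjusted p = 0.0125, limma), and with lists limited to one common number of regions it was -1.20 (adjusted p = 0.0207, limma). The rule chose the locus for its low wild-type level, so nothing is read from the rank, from these differences or from the lack of a change.

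For KO PMA against WT PMA, the contrast behind the choice of the locus, the difference was 6.04 on the log2 scale, rank 3 of the 5917 windows. In that contrast 15.8% of windows were higher and 26.1% lower, the median was -0.29, and nothing is read from the rank. By covered length alone, the locus ranked 14 and 8 among 15167 windows in the KO PMA libraries, 144 and 109 in KO mock, 3605 and 4033 in WT PMA, and 1723 and 1043 in WT mock.

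The regions of KO PMA were longer as well as more numerous. There were 46 and 52 regions in the KO PMA libraries, 27 and 32 in KO mock, 2 and 1 in WT PMA and 2 and 3 in WT mock. Their median length was 1487.5 and 1247.5 bp in KO PMA, 639 and 658 bp in KO mock, 565 and 500 bp in WT PMA, and 500 bp in both WT mock libraries, where 500 bp is the caller's smallest region. Over whole libraries the median was 626 and 500 bp in KO PMA and 500 bp in both KO mock libraries. By the median, the locus thus held longer regions than its own library in all 4 knockout libraries. High KO PMA coverage was part of the rule and favours long regions, so the KO PMA lengths are a description.

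**Figure D2:**
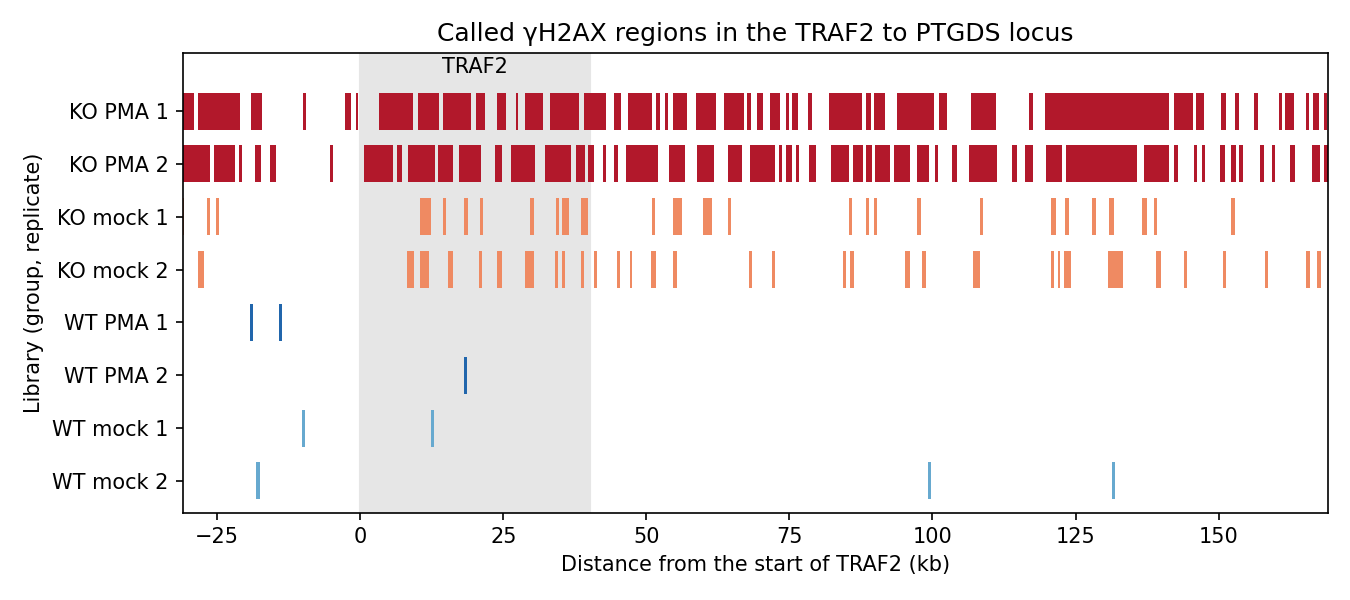
Called γH2AX regions in the locus, 1 row per library, by distance from the start of TRAF2 in kb; the grey band is TRAF2 (40.1 kb). The KO PMA rows hold 46 and 52 regions, the KO mock rows 27 and 32, and the wild-type rows 1 to 3 each.

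Long regions carried most of the covered length in KO PMA, whose high coverage was part of the rule. The KO PMA libraries had 17 and 21 regions 2 kb or longer, which held 76.9% and 76.5% of the covered length, against 0 and 1 in KO mock, holding 0% and 9.66%. Of regions 5 kb or longer there were 7 and 4 in KO PMA and 0 in each KO mock library. In KO PMA replicate 1 the longest region was chr9:139900710-139922342 (21.6 kb), with 485 tags per 10 M tags of the library and a deposited fold over input of 3.51. The longest in KO PMA replicate 2, chr9:139904284-139916628 (12.3 kb, fold 3.62), lay wholly inside it. The longest KO mock regions were chr9:139791441-139793276 (1835 bp, fold 3.52) inside TRAF2 and chr9:139911723-139914190 (2467 bp, fold 3.15), which lay inside both of those long KO PMA regions. The longest wild-type regions were 630 and 500 bp in WT PMA and 500 and 643 bp in WT mock.

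Tag density and fold were taken inside called regions alone, which had to pass the caller's tag threshold and its 2-fold limit over input in every library, so they do not measure enrichment across the whole locus. Regions of the locus held 20.8 and 20.7 tags per 10 M tags and per kb in KO PMA, 18.4 and 18.1 in KO mock, 12.7 and 17.7 in WT PMA, and 15.5 and 18.0 in WT mock. Over whole libraries the values were 18.7 and 19.3 in KO PMA, 19.5 and 20.8 in KO mock, 14.9 and 17.0 in WT PMA and 15.8 and 16.5 in WT mock. Thus the locus was denser than its library in KO PMA and less dense in KO mock, by at most a few tags per kb. The authors' fold over input had a median of 3.74 and 3.59 in the KO PMA regions of the locus and 3.62 and 3.86 in KO mock, against 4.07 and 4.26 over the whole KO PMA lists and 4.17 and 4.37 over the whole KO mock lists.

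Folds of 6 or more belonged to regions shorter than 2 kb. At least 6-fold over input were 2 and 3 regions in KO PMA, 3 and 7 in KO mock, 1 and 1 in WT PMA and 1 and 0 in WT mock, and every KO PMA region of at least 2 kb had a fold between 2.85 and 5.14. Counting those high-fold regions alone, the locus was covered over 2.21 and 2.11 kb in KO PMA, 1.63 and 4.13 kb in KO mock, and for wild-type cells over 0.63 and 0.50 kb with PMA and over 0.50 and 0 kb with mock treatment. On that measure the KO PMA values lay between the KO mock values. In KO PMA replicate 1 the regions with the highest fold were chr9:139804825-139806408 (10.2-fold) in TRAF2, chr9:139770944-139771573 (7.47-fold) and chr9:139825314-139826492 (5.26-fold). In KO PMA replicate 2 they were chr9:139823457-139823957 (16.3-fold), chr9:139881466-139881966 (8.14-fold) and chr9:139804562-139805672 (7.64-fold), the last of which overlapped the highest region of replicate 1. The 16.3-fold and 8.14-fold regions had the smallest length the caller gives, 500 bp. Each held 8.75 tags per 10 M tags, close to that library's threshold of 7.50.

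**Figure D3:**
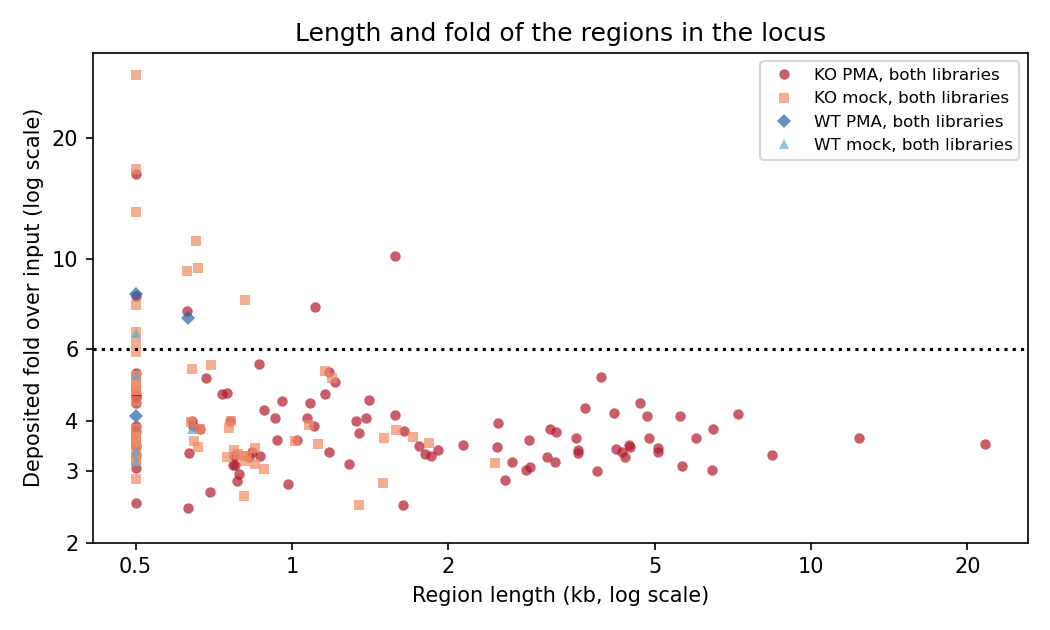
Length (kb, log scale) and the authors' fold over input (log scale) of each called region in the locus, by group with both libraries of a group pooled; the dotted line is 6-fold. All regions above 5 kb belong to KO PMA, and regions of at least 2 kb in KO PMA lie between 2.85-fold and 5.14-fold.

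Input signal is a measure of copy number and of how easily the stretch is recovered, and it came from WT mock cells alone. In the regions of the locus it was 5.79 and 5.73 tags per 10 M tags and per kb for the KO PMA lists and 5.16 and 4.37 for KO mock, against 5.11 and 5.07 over all KO PMA regions and 5.42 and 5.64 over all KO mock regions. A gain of copies of the locus in knockout cells and more γH2AX there cannot be told apart, since no knockout input was used.

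Within the locus, TRAF2 was the most densely covered of 3 stretches in knockout cells. Regions covered 27.6 and 28.5 kb of TRAF2 in KO PMA, and 7.15 and 8.15 kb of it in KO mock. For WT PMA the lengths were 0 and 0.50 kb, for WT mock 0.50 and 0 kb. Each knockout library lay above each wild-type library, and KO PMA above KO mock. With regions 6-fold or more above input alone, a filter chosen for TRAF2 after seeing the data, KO PMA and KO mock overlapped, at 1.58 and 1.11 kb in KO PMA and 1 and 1.31 kb in KO mock. Over all regions the covered lengths are 70.0 ± 1.73% of the gene in KO PMA, 19.1 ± 1.78% in KO mock, 0.624 ± 0.882% in WT PMA and 0.624 ± 0.882% in WT mock (SD, n = 2 each). The regions overlapping TRAF2 numbered 9 and 10 in KO PMA, 8 and 9 in KO mock, 0 and 1 in WT PMA and 1 and 0 in WT mock, so KO PMA and KO mock had nearly equal numbers of regions in the gene.

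The stretch right of TRAF2 (129 kb) was covered over 59.3 ± 2.58% of its length in KO PMA, 11.0 ± 2.43% in KO mock, 0% in both WT PMA libraries and 0.388 ± 0.548% in WT mock (SD, n = 2 each). The stretch left of TRAF2 (31.0 kb) was covered over 40.0 ± 3.78% in KO PMA, 3.45 ± 0.242% in KO mock, 1.82 ± 2.58% in WT PMA and 1.85 ± 0.327% in WT mock. Coverage in both knockout groups was thus lowest on the left.

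The start of TRAF2 lay in no called region in any of the 8 libraries. In KO PMA replicate 1 the nearest region on the left ended 307 bp before it and the next began 3262 bp after it, a gap of 3569 bp. In KO PMA replicate 2 those distances were 4760 and 618 bp, a gap of 5378 bp. The gaps around the start in KO mock were wider, 35195 and 35581 bp.

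Coverage was uneven along the 20 tiles of 10 kb. In KO PMA it peaked at 10.0 and 8.74 kb of 10 kb in chr9:139910001-139920000 and was lowest, at 1.73 and 0.50 kb, in chr9:139770001-139780000, just left of TRAF2. High tiles inside TRAF2 were chr9:139790001-139800000, with 8.34 ± 0.132 kb in KO PMA and 2.87 ± 0.236 kb in KO mock, and chr9:139810001-139820000, with 7.64 ± 0.489 kb in KO PMA and 2.90 ± 0 kb in KO mock (SD, n = 2 each). These tiles were also the highest of the locus in KO mock. Right of TRAF2 the tile without any KO mock coverage was chr9:139890001-139900000, with 3.53 ± 1.21 kb in KO PMA and 0 kb in KO mock.

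The edges of the locus are not edges of the signal. In KO PMA the tile just inside the left edge was covered over 8.92 ± 0.445 kb and the tile just outside over 5.91 ± 1.04 kb. At the right edge the values were 3.89 ± 0.611 kb just inside and 2.78 ± 0.196 kb just outside (SD, n = 2 each).

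All 20 tiles had called regions in both KO PMA libraries, 14 and 17 in the KO mock libraries, 1 and 1 in WT PMA, and 2 and 3 in WT mock. Tiles covered in both KO PMA libraries and in no wild-type library numbered 15 of 20, against 7.78% of 61627 covered tiles of the genome. The rule used that contrast, and nothing is read from the count. Tiles covered in both KO mock libraries and in no wild-type library numbered 11 of 20, against 4.56% over the genome. The rule used the wild-type level, so nothing is read from this count either.

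Tested tile by tile over the genome, 10 of the 20 tiles were higher in KO mock than in WT mock and 0 lower (limma, adjusted p under 0.05), against 9.23% higher and 2.74% lower over all 38356 tiles tested. The called differences ran from 3.27 to 4.91 on the log2(covered bp + 100) scale, with adjusted p from 0.000248 to 0.0259, and the median over the 20 tiles was 3.31 against 0 over all tiles. The largest was the TRAF2 tile chr9:139810001-139820000. All 10 called tiles were at 0 bp in both WT mock libraries, which is the wild-type level the rule chose, so the sizes of these differences depend on the pseudocount and the count is read as a description. The tiles chr9:139790001-139800000 and chr9:139910001-139920000, with 2.87 ± 0.236 and 2.21 ± 0.356 kb in KO mock (SD, n = 2) and 0.50 kb in 1 of the 2 WT mock libraries, were not called. Limited to regions 6-fold or more above input, 2 tiles were called, with 591 called over the genome in either direction.

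For KO PMA against KO mock, 10 of 20 tiles were higher and 0 lower, against 10.2% higher and 2.71% lower over all tiles. The called differences ran from 1.36 to 5.14, with adjusted p from 0.000428 to 0.0477, and the median was 2.42 against 0.73 over all tiles. The largest was the tile with no KO mock coverage, chr9:139890001-139900000. The rule used the KO PMA level, so nothing is read from the count against the share over all tiles. Fewer tiles were called, in the locus and over the genome, when either KO PMA library was left out. Limited to regions 6-fold or more above input, limma tested 4 tiles, called 0 higher and 1 lower, and gave 2 an unadjusted p under 0.05. Over the genome, 1175 tiles were called in either direction under that limit. For WT PMA against WT mock, 0 of 20 tiles were called by limma in either direction, with 0 at an unadjusted p under 0.05, against 16.3% higher and 1.92% lower over all tiles. Since 15 of the 20 tiles were at 0 bp in all 4 wild-type libraries, the low level the rule chose, nothing is read from this count.

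**Figure D4:**
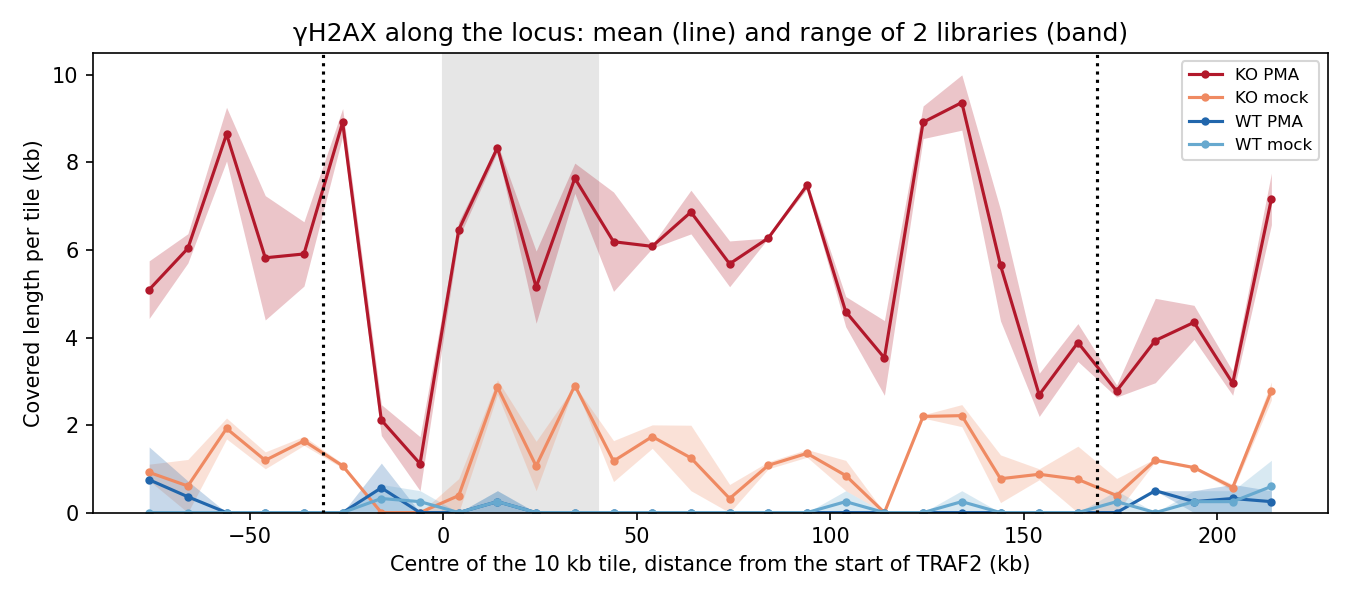
Covered length in kb per 10 kb tile against the distance of the tile's centre from the start of TRAF2 (kb); lines are means and bands the range of the 2 libraries, the grey band is TRAF2 and dotted lines are the edges of the locus. The KO PMA mean peaks at 9.37 kb and dips to 1.12 kb just left of TRAF2, the KO mock mean stays at or below 2.90 kb inside the locus, and the means of both wild-type groups stay at or below 0.565 kb there.

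Replicates of knockout cells had larger overlaps in the locus than over the genome. The covered base pairs of the KO PMA libraries had a Jaccard index (shared over joint length) of 0.603 in the locus and 0.265 over the genome, and those of KO mock 0.201 in the locus and 0.147 over the genome. The part of the denser coverage in this index was not tested. The 2 libraries of WT PMA shared 0 bp in the locus, as did the 2 of WT mock.

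KO mock regions lay mostly where KO PMA regions lay. Of the covered base pairs of KO mock replicate 1, 91.8% were inside regions of KO PMA replicate 1 and 90.2% inside those of replicate 2, against 39.1% and 32.8% over the genome. For KO mock replicate 2 the shares were 89.8% and 84.4%, against 40.0% and 33.8%. KO PMA regions covered 59.8% and 57.1% of the locus itself, which is the share of base pairs inside them without regard to KO mock. That density was 42.6 and 50.1 times the mean of their libraries. Shares in the locus and over the genome thus start from unlike bases, and nothing is read from setting them side by side. Regions of KO PMA replicates 1 and 2 overlapped 26 and 27 of the 27 regions of KO mock replicate 1 by at least 1 bp. They overlapped 31 and 29 of the 32 regions of KO mock replicate 2. The share of regions over the genome was not computed, so nothing is read from these counts.

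The longest stretch covered in both KO PMA libraries was chr9:139904284-139916628 (12344 bp). In that stretch 2085 and 3302 bp were covered in the KO mock libraries and 500 bp in the 4 wild-type libraries together. The next were chr9:139917891-139922342 (4451 bp) and chr9:139887682-139891998 (4316 bp). The longest stretches covered in neither KO PMA library lay left of TRAF2, chr9:139766230-139770944 (4714 bp) and chr9:139771573-139775705 (4132 bp).

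The coverage in knockout cells ran past the locus on both sides. In the neighbouring 200 kb window on the left, regions covered 101 and 81.3 kb in KO PMA, and 12.9 and 18.0 kb in KO mock, while WT PMA libraries had 2 and 1.88 kb and WT mock libraries 0 and 2 kb. In that on the right they covered 103 and 88.9 kb in KO PMA, and 24.4 and 30.1 kb in KO mock, while WT PMA libraries had 2.42 and 4.14 kb and WT mock libraries 0.50 and 4.14 kb. The locus had the highest KO PMA coverage of the windows examined around it. KO mock was higher in the right neighbour, with 27.2 ± 4.03 kb against 22.9 ± 3.77 kb in the locus (SD, n = 2 each). It was higher there in both KO mock libraries, by similar amounts, and this was not tested.

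Farther out the groups crossed. In chr9:140550001-140750000, KO PMA had 3.68 ± 0.347 kb, KO mock 10.1 ± 1.05 kb, WT PMA 12.5 ± 2.97 kb and WT mock 4.28 ± 2.22 kb. In chr9:138750001-138950000, KO PMA had 7.78 ± 2.90 kb and WT PMA 7.39 ± 4.07 kb (SD, n = 2 each), which overlapped.

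**Figure D5:**
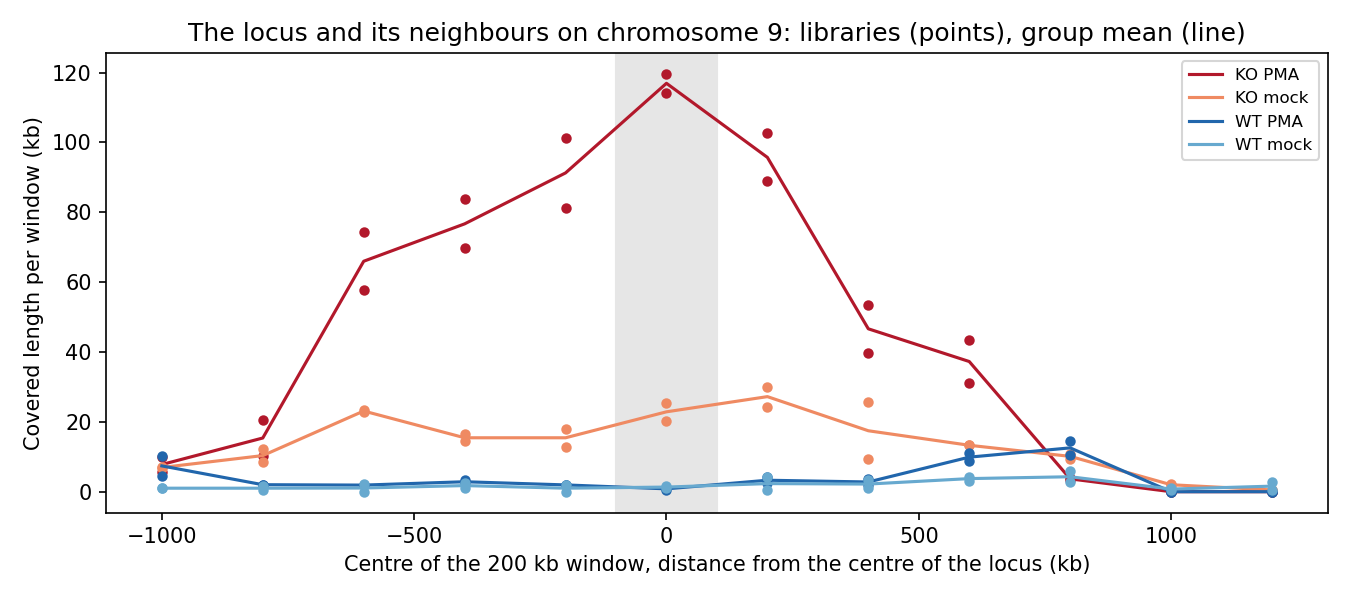
Covered length in kb per 200 kb window against the distance of the window's centre from the centre of the locus (kb), with points for libraries and lines for group means; the grey band is the locus. KO PMA is highest in the locus (117 kb), still 91.3 and 95.7 kb in the adjoining windows, and 3.68 kb in the window 4 to the right, where WT PMA has 12.5 kb.

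The windows whose pattern over the 8 libraries was most like the locus were taken as those with the smallest Euclidean distance on the log2(covered bp + 1000) scale, at most 1 per 10 Mb. The nearest was chr19:1750001-1950000 (distance 0.736), with 110 and 101 kb covered in KO PMA, 24.2 and 25.7 kb in KO mock, 0.50 and 0.647 kb for WT PMA and 1 kb for both WT mock libraries. The next were chr16:2150001-2350000 (1.20), chr11:65550001-65750000 (1.60), chr19:49350001-49550000 (1.62) and chr19:18350001-18550000 (1.83). Over these 4 windows, coverage ran from 63.3 to 108 kb in KO PMA, 13.2 to 41.4 kb in KO mock, 0.50 to 1.72 kb in WT PMA and 0 to 1.63 kb in WT mock. The KO PMA, KO mock and wild-type ranges did not overlap in these windows, which the measure of likeness selects for.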

How the data were processed

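γH2AX ChIP-seq libraries of K562 cells were deposited as 8 region lists. CASAVA 1.4, BWA, HOMER and the hg19 build are named in the submitters' processing notes. HOMER was run by the authors in histone mode on 1 library at a time, with the WT mock input as background, per the file headers. A 500 bp window had to reach a depth-dependent number of tags (Poisson p of 0.001) and at least 2-fold and p of 0.0001 over input. The caller's minimum distance was 1000 bp, yet separate regions of a list can lie closer than that from end to start. In KO PMA replicate 1, for example, a region ending at chr9:139848110 was followed by another starting at chr9:139848610. The deposited signal is the tag number per 10 M tags of the library, and deposited counts of tags were not tested. Input tags were rescaled to 10 M tags only where the header says they are normalized to the library. That left out WT PMA replicate 1 and both WT mock lists. The deposited ratio is the authors' fold over input, and the deposited score and p-value are HOMER's own for each region; they were used to filter and rank regions within each list, and the fold is also given side by side for several lists as a description. All lists share 1 input, but each has its own threshold. The tag threshold ran from 5.89 tags per 10 M in the deepest library to 7.69 in the shallowest, so deeper libraries could call weaker windows.

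Covered length is the base pairs inside regions. The genome was divided into windows of 200 kb, placed so that the locus was 1 window, and tiles of 10 kb. Those with coverage in 2 or more libraries entered limma 3.58.1 (R 4.3.3, mean-variance trend) on log2(covered bp + 1000) for windows and log2(covered bp + 100) for tiles, in 1 fit of all 8 libraries with 4 groups, two-sided, with Benjamini-Hochberg adjustment over the genome. These scales understate changes of little-covered windows, and groups with both libraries at 0 show no spread. Alternatives were stricter region filters, other pseudocounts, centring, a 100 kb bin, a replicate block and leaving out each library. Other steps used Python 3.11.15, numpy 2.4.6, pandas 2.3.3 and matplotlib 3.10.9.

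The locus, genes and lists were chosen with earlier results of these data known. Named were TRAF2, FBXW5, PTGDS and ABCA2, the 5 windows most like the locus (none within 5 Mb of it), the longest region per library and the 3 regions of highest fold per KO PMA library; wild-type regions are given by length alone. Common stretches and tiles were named after their values were seen. Lists of ABCA, lipocalin, TNF signalling and ubiquitin ligase genes were not analysed here, since no hg19 gene annotation was used. Whether replicates were separate cultures is not given in the sources used here, and p-values then reflect the spread between libraries alone.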

Additional observations from a re-analysis of the deposited data

How the results depend on the processing

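Each of the 4 locus comparisons was recomputed under 18 alternatives. The rule used the wild-type and KO PMA levels, so each comparison has a side that the choice of the locus partly fixed. The recomputed values show how the numbers depend on the processing and add no support for a difference. The higher coverage in KO mock than in WT mock kept its direction and its side of the threshold in 17, the exception being regions of at least 6-fold over input (1.58, adjusted p = 0.110, limma). That in KO PMA against KO mock did so in 17, and turned to -0.22 (adjusted p = 0.880, limma) with 6-fold regions. WT PMA against WT mock turned to 0.35 with 6-fold regions and passed the threshold with the same number of regions per library (-1.20) and with centred libraries (-1.31). The cause was not tested. KO PMA against WT PMA moved from 6.04 to 1.02 with 6-fold regions, 6.57 under one tag threshold, 6.71 without regions shorter than 1000 bp, 7.09 and 3.55 with pseudocounts of 100 and 10000 bp, and 6.61 with centring. Leaving out each library gave 5.79 to 6.30 for KO PMA against WT PMA, 3.17 to 3.57 for KO mock against WT mock, 2.15 to 2.48 for KO PMA against KO mock and -0.62 to -0.11 for WT PMA against WT mock. An arm left with 1 library was assumed to vary like the other groups. Tiles higher in KO mock than in WT mock numbered 2 with 6-fold regions. Over the genome, 591 tiles were then called in either direction, against 4591 in the main fit. For KO PMA against KO mock, 4957 were called in the main fit, 5758 with a pseudocount of 1000 bp and 1175 with 6-fold regions. The number of tiles tested under each alternative is not given here, so these counts form no shares. Nothing is read from the counts of called locus tiles under the alternatives, those without 1 library and with the replicate block included. Tiles higher in KO PMA than in KO mock numbered 17 with a pseudocount of 1000 bp, 4 to 14 without 1 library, and 0 with 6-fold regions (limma; 2 of 4 tiles had an unadjusted p under 0.05).

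Deviations of same-numbered libraries correlated at -0.062, 0.043, -0.018 and 0.195 across windows, the last for WT PMA against WT mock. No label says that a number marks a shared batch or culture, and 2 libraries per group are too few to show pairing, so the numbers were not taken to pair the samples. A replicate block left the log2 differences as they were, with adjusted p of 0.00598 for KO mock against WT mock, 0.0138 for KO PMA against KO mock and 0.360 for WT PMA against WT mock (limma). The block gave 6 tiles higher in KO PMA than in KO mock, with 4261 tiles called over the genome in either direction. Filters on TRAF2 itself were chosen after seeing the data. With 6-fold regions TRAF2 was covered over 1.35 kb in KO PMA and 1.16 kb in KO mock, and with the same number of regions per library over 14.6 kb in KO PMA and 5.14 kb in KO mock. In KO mock it was 6.03 kb under one tag threshold and 4.34 kb when regions shorter than 1000 bp were left out. Sharing at least 50% of a region's length instead of 1 bp left 25 and 26 of 27 and 29 and 26 of 32 KO mock regions shared. No share over the genome was computed for these counts either. With 2 libraries per group, an exact permutation test cannot go below p = 0.33.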
